A study of Homo sapiens with 4 samples.

Results

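The cytosolic ribosome is built from a small (40S) and a large (60S) subunit, and each of its proteins is encoded by its own gene. The genes described here were the protein-coding genes whose symbols follow the RPL, RPS and RPLP naming pattern, together with *RPSA*. Kinase genes of the RPS6K family and Y-linked copies were left out. The rule found 84 genes among the 63677 Ensembl genes of the count table. Of these, 31 encode 40S proteins, 43 encode 60S proteins, 3 encode the acidic stalk of the 60S subunit (*RPLP0*, *RPLP1* and *RPLP2*), and 7 are paralogs with an L after the number, such as *RPL22L1*. The rule used only gene names, and no expression value took part in it.

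The RNAseq libraries came from LX-2, an established human hepatic stellate cell line. The cells received the miR-6133-5p mimic or the negative control mimic (miControl), each at 20 nM. All cells were given 5 ng/mL of rhTGF-β1, a fibrogenic cytokine, 24 h after transfection, and RNA was taken a further 24 h later. Each of the 2 groups had 2 libraries, called replicates 1 and 2, and no group without rhTGF-β1 was analysed here. LX-2 is a single line, and no label states that the replicates came from separate cultures, so p-values measure only the spread between these libraries, which may be technical.

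Total counts on genes ran from 51862006 to 93811213 per library, the deepest being miR-6133-5p replicate 2. Among 10 marker genes of stellate cells and fibroblasts, 8 had enough counts to be tested. Their summed level was 8545 to 9115 CPM (counts scaled to the library total, here with its TMM factor) in miControl and 5728 to 6351 CPM in miR-6133-5p, led by *SPARC*, a matrix protein of mesenchymal cells. Markers of hepatocytes summed to at most 0.141 CPM, with *TTR* and *HNF4A* at 0 in every library. Endothelial markers summed to 0.624 to 1.35 CPM, macrophage markers to 1.16 to 2.28 CPM and cholangiocyte markers to 3.70 to 7.30 CPM, the last mostly *KRT7*. The levels of the last 3 sets were higher in the miR-6133-5p libraries. In each of these sets 1 gene was at 0 in every library, namely *LYVE1*, *CD163* and *CFTR*. Other genes of the sets were detected, such as *VWF* (at most 0.766 CPM) and *CD14* (at most 1.97 CPM). The part of these marker levels in the results was not tested.

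Ribosomal protein mRNAs are among the most abundant mRNAs of a growing cell. Most of them begin with a cytosine followed by a run of pyrimidines, the 5′ terminal oligopyrimidine (TOP) motif, through which the mTOR kinase and the RNA-binding protein LARP1 control their translation and stability. The subunits need their proteins in equal numbers, and a surplus of single 60S proteins such as RPL5 and RPL11 is known to bind MDM2 and stabilise p53.

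The TOP motif was looked for at the annotated starts of the RefSeq genes on GRCh38.p14, as a C at the first transcribed base that opens a run of at least 5 pyrimidines. Only the strand of the gene was read. Of the 84 genes, 67 had a start in the table, and 47 of these (70.1%) had such a run at a start, against 750 of 10869 other tested protein-coding genes (6.90%) and 4.07% of all starts. Starts of 6 genes are shown because the largest differences between the groups, or the comparison with a close copy, concern them. Each window holds 15 bases before and 15 bases from the start, and capitals mark the pyrimidine run where one was found. The minus strand carries *RPL22L1* at chr3:170870181-170870210, *RPL22* at chr1:6199581-6199610, *RPL18* at chr19:48619164-48619193 and *RPLP0* at chr12:120201097-120201126. The plus strand carries *RPL36A* at chrX:101390996-101391025 and *RPL26L1* at chr5:172958714-172958743.
RPL22L1: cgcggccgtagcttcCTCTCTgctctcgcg
RPL22: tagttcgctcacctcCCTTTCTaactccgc
RPL18: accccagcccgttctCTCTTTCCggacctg
RPLP0: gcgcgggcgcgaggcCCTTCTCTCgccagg
RPL36A: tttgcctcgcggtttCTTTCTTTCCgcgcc
RPL26L1: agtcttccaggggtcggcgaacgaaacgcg
Of these starts, that of *RPL26L1* had no run. *RPL18*, which rose, had one, as did *RPL22L1*, *RPL36A* and *RPLP0*, which fell with TMM.

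In miControl, ribosomal protein genes took 2.87% and 2.68% of all counts on genes in replicates 1 and 2. In miR-6133-5p they took 3.13% and 2.65%. The miControl values lay between those of the miR-6133-5p libraries, so the groups overlapped. A share of counts uses library totals, and it cannot tell a change in these mRNAs from a change in the other counted RNAs. The mean share was 2.77% ± 0.134 (SD, n = 2) in miControl and 2.89% ± 0.339 (SD, n = 2) in miR-6133-5p. The difference of 0.116 percentage points had p = 1 in a two-sided exact permutation test, which with 2 libraries against 2 cannot give less than 0.333. The summed level with TMM went the other way, from 29321 ± 1260 CPM in miControl to 27275 ± 3164 CPM in miR-6133-5p (SD, n = 2). Its groups overlapped too, with an exact permutation p of 0.667. Genes of 60S proteins made up the largest portion, at 1.54% to 1.84% of counts, followed by those of 40S proteins at 0.845% to 1.00%. The stalk genes took 0.249% and 0.227% in miControl and 0.232% and 0.196% in miR-6133-5p, and these values overlapped as well. The 7 paralogs took 0.0433% and 0.0436% in miControl and 0.0529% and 0.0489% in miR-6133-5p. This difference reached the smallest p of the exact permutation test, 0.333. With library totals, 46.8% of all tested genes lay above both miControl libraries in the same way.

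**Figure D1:**
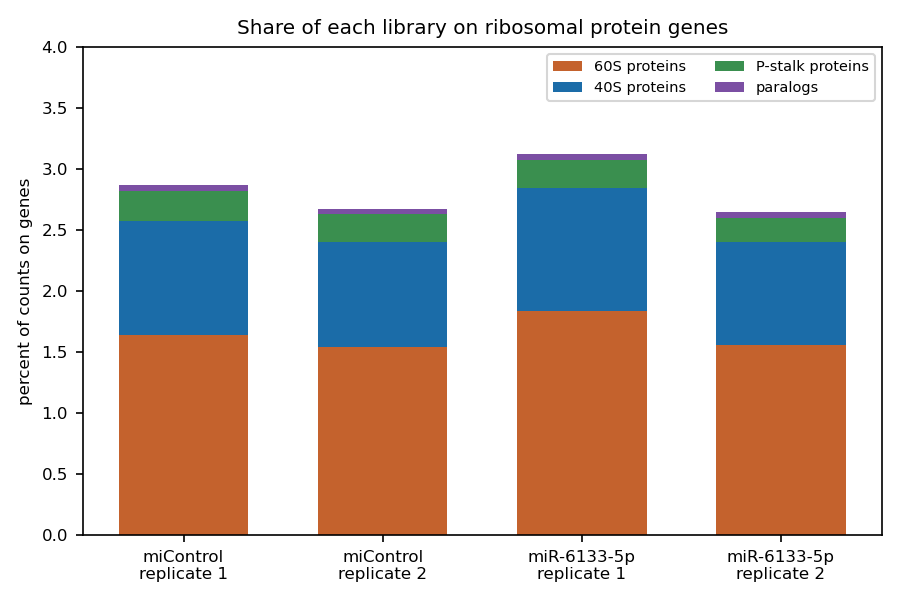
Share of counts on genes (y axis, percent, from 0) taken by genes of 60S proteins, 40S proteins, stalk proteins and paralogs in each of the 4 libraries (x axis). The stacked bars reach 2.87% and 2.68% in miControl and 3.13% and 2.65% in miR-6133-5p, so miR-6133-5p replicate 1 is the highest and replicate 2 the lowest.

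Levels differed widely between ribosomal protein genes when expressed per kilobase of the canonical transcript. In miControl, the median over 82 genes was 343 CPM per kb (TMM-scaled), and the highest level was 1748 for *RPLP0*. *RPLP0*, the scaffold of the stalk, stood at 1748 ± 96.6 (SD, n = 2), above *RPL19* at 1158 ± 33.7 and *RPL9* at 1081 ± 4.17, both 60S proteins. *RPL9* was followed by *RPL6* at 1078 ± 14.3, and these neighbours did not differ beyond their spread. Low levels were found for *RPL22L1* (5.70 ± 0.0322) and *RPS10* (9.55 ± 0.228). *RPS10* encodes a 40S protein. Of its exonic bases, 31.5% also belonged to *RPS10-NUDT3*, a readthrough gene that had 0 counts in every library. Read pairs that map to several places or to several genes are not counted by default, and the part of this in the low levels was not tested. The canonical transcripts of *RPL27A*, *RPL14*, *RPL28*, *RPL37* and *RPL7L1* were annotated as longer than 4000 bases, which lowers their level per kb.

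The comparison of miR-6133-5p with miControl asked whether the mimic altered the mRNAs of the ribosome. Of the 84 genes, 82 passed the filter on low counts, among 18252 genes tested. *RPL10L*, a retrogene of *RPL10* known from testis, had 0 counts in 3 libraries and 4 in miR-6133-5p replicate 1. *RPL3L*, the muscle paralog of *RPL3*, had 3 and 0 counts in miControl and 6 and 4 in miR-6133-5p. Neither was tested. *RPL10* and *RPL3* themselves had log2 fold changes of −0.16 and 0.052 with TMM and did not pass the test described next.

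With TMM scaling, no ribosomal protein gene was higher by more than 0.8 in log2 fold change at an adjusted p under 0.01, where 2.90% of all tested genes were. By the same rule 1 gene was lower, *RPL22L1*, where 5.54% of all tested genes were. Without the fold limit, at an adjusted p under 0.05 (edgeR's quasi-likelihood test with Benjamini–Hochberg adjustment over all tested genes), 2 were higher, *RPL18* and *RPL26L1*, and 11 were lower. Over all tested genes these shares were 14.1% and 16.1%. The 13 genes past this threshold were 15.9% of the 82, whereas 30.2% of all tested genes passed it. DESeq2 likewise found 0 higher by more than 0.8 (2.68% of all tested genes).

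The 82 differences were small. Their median log2 fold change was −0.073, beside 0.026 over all tested genes. Of the 82, 76 lay within 0.4 of 0, as did 10448 of the 18252 tested genes. The SD of the log2 fold changes was 0.229 among ribosomal protein genes and 0.644 among all tested genes, with median standard errors of 0.114 and 0.144. Both miR-6133-5p libraries lay above both miControl libraries for 5 genes and below them for 25, while the groups overlapped for 52. Over all tested genes, 33.2% lay above and 31.3% below.

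The direction of these small differences depended on the scaling. With library totals in place of TMM, the median moved by 0.16 to 0.091, and that of all tested genes moved equally, from 0.026 to 0.19. By this scaling 1 gene was higher by more than 0.8 (*RPL18*), where 5.35% of all tested genes were, and 1 was lower (*RPL22L1*), where 3.89% were. At an adjusted p under 0.05, 5 were higher (25.2% of all tested genes) and 2 lower (11.1%), and these 7 were 8.54% of the 82 beside 36.2% of all. With library totals both miR-6133-5p libraries lay above both miControl libraries for 24 genes and below them for 8, and 50 overlapped, beside 46.8% above and 22.2% below over all tested genes. The sign was the same by both scalings for 54 genes and went from negative to positive for 28. Of the 13 and 7 genes past the looser threshold, 4 were shared, namely *RPL22L1*, *RPL36A*, *RPL18* and *RPL26L1*. Relative to the median of all tested genes, the ribosomal protein genes lay 0.099 lower with TMM and 0.098 lower with library totals.

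**Figure D2:**
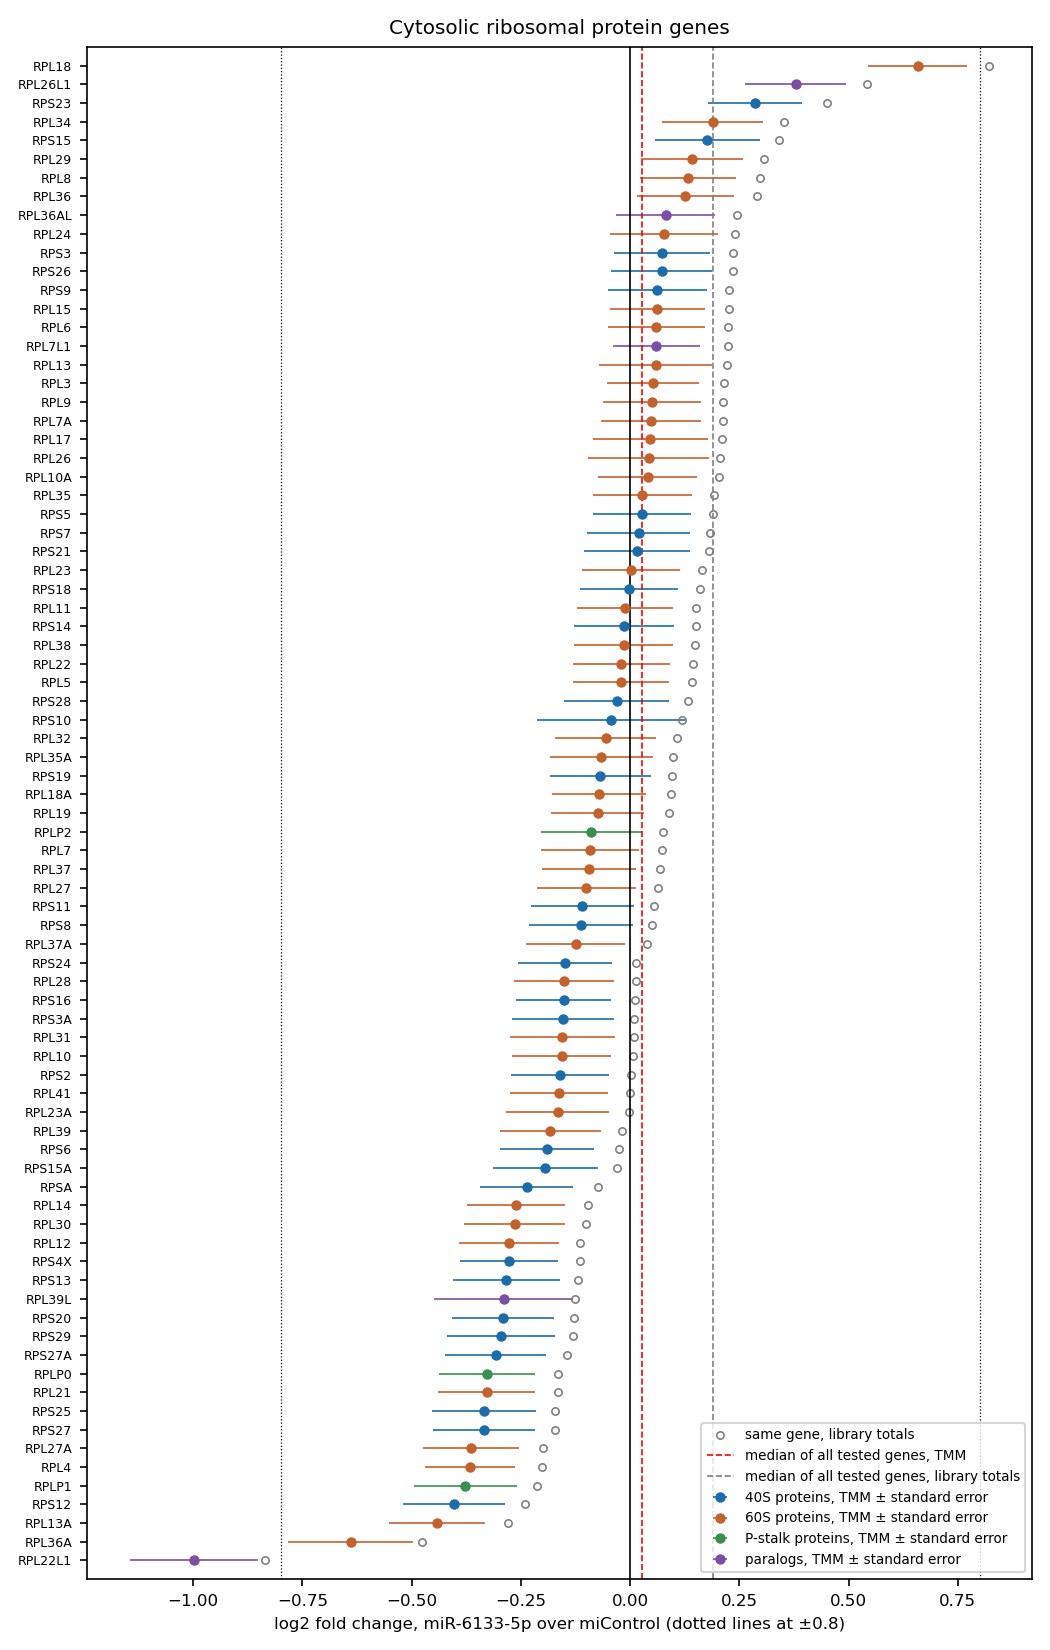
Log2 fold change of miR-6133-5p over miControl (x axis) for 81 of the 82 tested ribosomal protein genes (y axis, in order of the TMM value). Filled points are TMM values with the standard error as bars, coloured by role, open points are the values with library totals, and dashed lines are the medians of all tested genes. *RPL22L1* and *RPL36A* lie at the bottom and *RPL18* at the top, and most of the other genes lie within 0.4 of 0, with the open points 0.16 further to the right.

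The counts also depended on which libraries were used. Without miR-6133-5p replicate 1, 41 genes were lower (17.2% of all tested genes) and 1 higher (13.7%) at an adjusted p under 0.05, with a median of −0.23. Without miR-6133-5p replicate 2, 10 were lower (18.7%) and 11 higher (15.4%), with a median of 0.022. Without miControl replicate 1, 2 were lower (8.25%) and 1 higher (5.19%), with a median of −0.032. Without miControl replicate 2, 2 were lower (9.7%) and 1 higher (5.85%), with a median of −0.14. Each of the 4 libraries thus moved at least one of the counts by more than 1.5 times. With library totals and without miR-6133-5p replicate 2, 38 were higher (25.2%) and 2 lower (12.1%), and without miR-6133-5p replicate 1, 3 were higher (22.9%) and 16 lower (10.7%). *RPL22L1*, *RPL36A* and *RPL18* passed the looser threshold in all 4 of the TMM fits that left out 1 library.

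The tested ribosomal protein genes also shared a difference between the miR-6133-5p replicates. In miR-6133-5p, all 82 tested genes were higher in replicate 1 than in replicate 2 by TMM, by a median of 0.25 on the log2 scale (range 0.033 to 0.60). Among all tested genes, 52% were higher in replicate 1, with a median of 0.012. In miControl, 75 of the 82 were higher in replicate 1, but by a median of only 0.084. The 75 tested genes of mitochondrial ribosomal proteins, which are encoded separately and serve the ribosome inside mitochondria, behaved similarly in miR-6133-5p, with 72 higher in replicate 1 and a median of 0.20. The genes of a library are not independent of each other, so these counts describe the libraries.

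Transcript length moved with the same difference. The canonical transcripts of ribosomal protein genes had a median length of 781.5 bases, and those of all tested protein-coding genes 3372 bases. Among other protein-coding genes, the median of replicate 1 minus replicate 2 in miR-6133-5p was 0.22 for 687 genes of at most 1000 bases, 0.14 up to 2000 bases, 0.055 up to 4000 bases and −0.093 above that. The ribosomal protein genes in these 4 classes had medians of 0.26, 0.26, 0.25 and 0.22, the last over 5 genes. Among the other genes, the difference between the groups also went down with length, from a median log2 fold change of 0.19 up to 1000 bases to −0.048 above 4000 bases with TMM. The 47 ribosomal protein genes of at most 1000 bases had a median of −0.074. By level, the 7 ribosomal protein genes up to 10 CPM had a median of −0.044 with TMM, beside 0.14 for other protein-coding genes. The 6 from 10 to 100 CPM had 0.099 beside 0.043. The sets lay close together only at higher levels. Above 100 CPM, where 69 of the 82 ribosomal protein genes lie, their median was −0.089 with TMM and 0.075 with library totals, and that of 2238 other protein-coding genes was −0.091 and 0.072. The part of transcript length in these results was not tested.

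**Figure D3:**
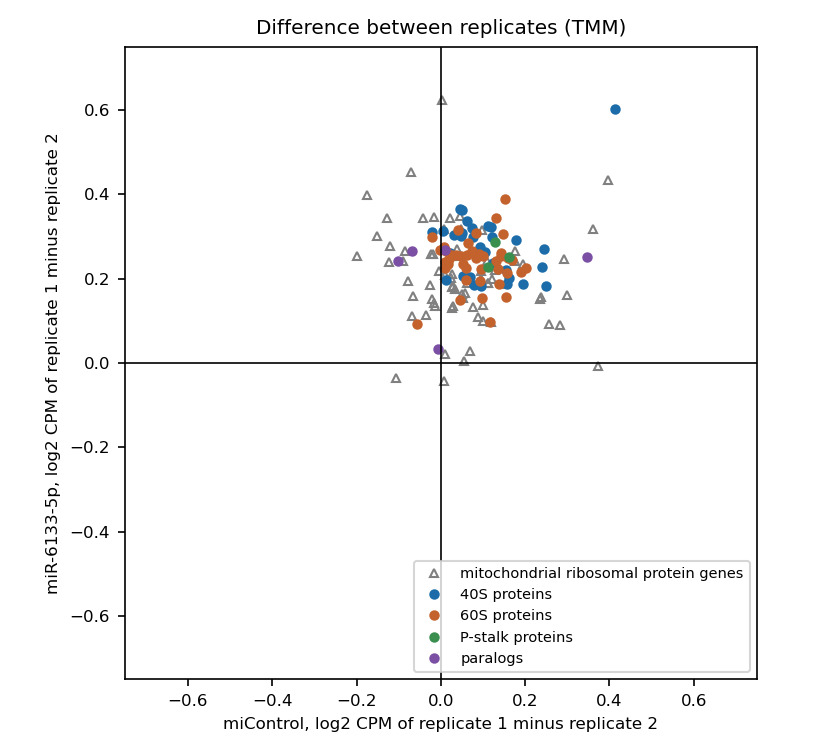
Log2 CPM of replicate 1 minus replicate 2 (TMM, pseudocount 0.5) in miControl (x axis) and in miR-6133-5p (y axis), for the tested cytosolic ribosomal protein genes (filled, by role) and mitochondrial ribosomal protein genes (open triangles). All filled points lie above 0 on the y axis, around a median of 0.25, and spread around a median of 0.084 on the x axis.

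Among the paralogs, *RPL22L1* fell and *RPL26L1* rose. RPL22L1 is the paralog of RPL22, an RNA-binding 60S protein that is known to repress *RPL22L1*. *RPL22L1* (ENSG00000163584, chr3:170582664-170587997 on GRCh37, minus strand) was at 10.9 and 10.8 CPM in miControl and at 5.99 and 4.89 CPM in miR-6133-5p. Both miR-6133-5p libraries lay far below the miControl libraries, on 392 to 588 counts per library. Its log2 fold change was −0.998 (SE 0.146, adjusted p = 0.0002, edgeR's quasi-likelihood test) with TMM and −0.83 (adjusted p = 0.0007) with library totals. *RPL22* itself was at 208 and 205 CPM in miControl and at 221 and 187 CPM in miR-6133-5p. These values overlapped, and the log2 fold change was −0.021 (SE 0.111) with TMM and 0.14 with library totals.

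RPL26L1 is nearly identical to RPL26, a 60S protein near the exit of the peptide tunnel. *RPL26L1* was at 29.7 and 31.9 CPM in miControl and at 43.4 and 36.7 CPM in miR-6133-5p, without overlap. The log2 fold change of the paralog was 0.38 (SE 0.115, adjusted p = 0.0244, edgeR's quasi-likelihood test) with TMM and 0.54 (adjusted p = 0.0025) with library totals. With TMM it passed the looser threshold in 1 of the 4 fits that left out a library, the one without miR-6133-5p replicate 2. *RPL26* was at 9.78 and 9.45 CPM in miControl and at 10.8 and 9.0 CPM in miR-6133-5p, and its log2 fold change was 0.042 with TMM. Its count is uncertain, since 14.5% of its exonic bases belonged to another gene and its 17 pseudogenes held 11.7% as many counts as the gene. The other 3 tested paralogs did not pass the test. *RPL7L1*, a paralog of *RPL7* that takes part in 60S assembly, had a log2 fold change of 0.060, and *RPL7* had −0.091. *RPL36AL*, a close copy of *RPL36A*, had 0.081, and *RPL39L*, a copy of *RPL39* known from male germ cells, had −0.29 beside −0.18 for *RPL39*.

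*RPL36A* and *RPL36AL* encode nearly the same 60S protein, and only *RPL36A* passed the test. *RPL36A* (chrX:100645812-100651143 on GRCh37, plus strand) was at 8.01 and 8.35 CPM in miControl and at 5.44 and 5.07 CPM in miR-6133-5p, and the groups did not overlap. Its log2 fold change was −0.64 (SE 0.143, adjusted p = 0.0043, edgeR's quasi-likelihood test) with TMM and −0.48 (adjusted p = 0.0201) with library totals. *RPL36AL*, at 102 and 107 CPM in miControl and 121 and 101 CPM in miR-6133-5p, overlapped between the groups with TMM. With library totals both miR-6133-5p libraries lay above both miControl libraries for this gene. The count of *RPL36A* is uncertain. Of its exonic bases, 8.40% also belonged to *RPL36A-HNRNPH2*, a readthrough gene that had 0 counts in every library. On the opposite strand, *GLA* covered 14.0%, and the part of either overlap in the count was not tested. The 52 annotated pseudogenes of *RPL36A* held 58.2% as many counts as the gene. With their counts added, the log2 fold change was −0.53 (adjusted p = 0.0064, edgeR's quasi-likelihood test).

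Of the 82 tested genes, *RPL18* had the largest rise by both scalings. *RPL18* (ENSG00000063177, chr19:49118585-49122441 on GRCh37, minus strand) encodes a core protein of the 60S subunit. It was at 176 and 160 CPM in miControl and at 286 and 245 CPM in miR-6133-5p. The lower miR-6133-5p value was well above the higher miControl value. The log2 fold change was 0.66 (SE 0.113, adjusted p = 0.0007, edgeR's quasi-likelihood test) with TMM and 0.82 (adjusted p = 0.0001) with library totals. None of its exonic bases belonged to another annotated gene, and its 4 pseudogenes held 0.0232% as many counts as the gene. Without a single library, the value ranged from 0.52 to 0.75 with TMM.

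*RPL13A*, a 60S protein that is also known for a role outside the ribosome in the translational silencing of inflammatory mRNAs, was lower in miR-6133-5p. It was at 630 and 590 CPM in miControl and at 484 and 414 CPM in miR-6133-5p, without overlap. The log2 fold change was −0.44 (SE 0.110, adjusted p = 0.0083, edgeR's quasi-likelihood test) with TMM, and −0.28 (adjusted p = 0.0659) with library totals, past no threshold. The other 60S genes past the looser threshold with TMM were *RPL4* (−0.37), *RPL27A* (−0.36) and *RPL21* (−0.33), and with library totals they were at −0.20, −0.20 and −0.16 and did not pass. *RPL13A* and *RPL4* each overlap 4 annotated small nucleolar RNA genes, *RPL21* overlaps 2 and *RPL27A* 1, and the part of this overlap in their counts was not tested. *RPL34* passed only with library totals, at 0.35 (adjusted p = 0.0294, edgeR's quasi-likelihood test), and had 0.19 with TMM. *RPL5* and *RPL11*, the proteins that bind MDM2, had −0.021 and −0.012 with TMM and 0.14 and 0.15 with library totals, and neither passed. The median of the 43 genes was −0.056 with TMM and 0.11 with library totals, and 1 was higher and 5 lower at the looser threshold with TMM, beside 14.1% and 16.1% of all tested genes.

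**Figure D4:**
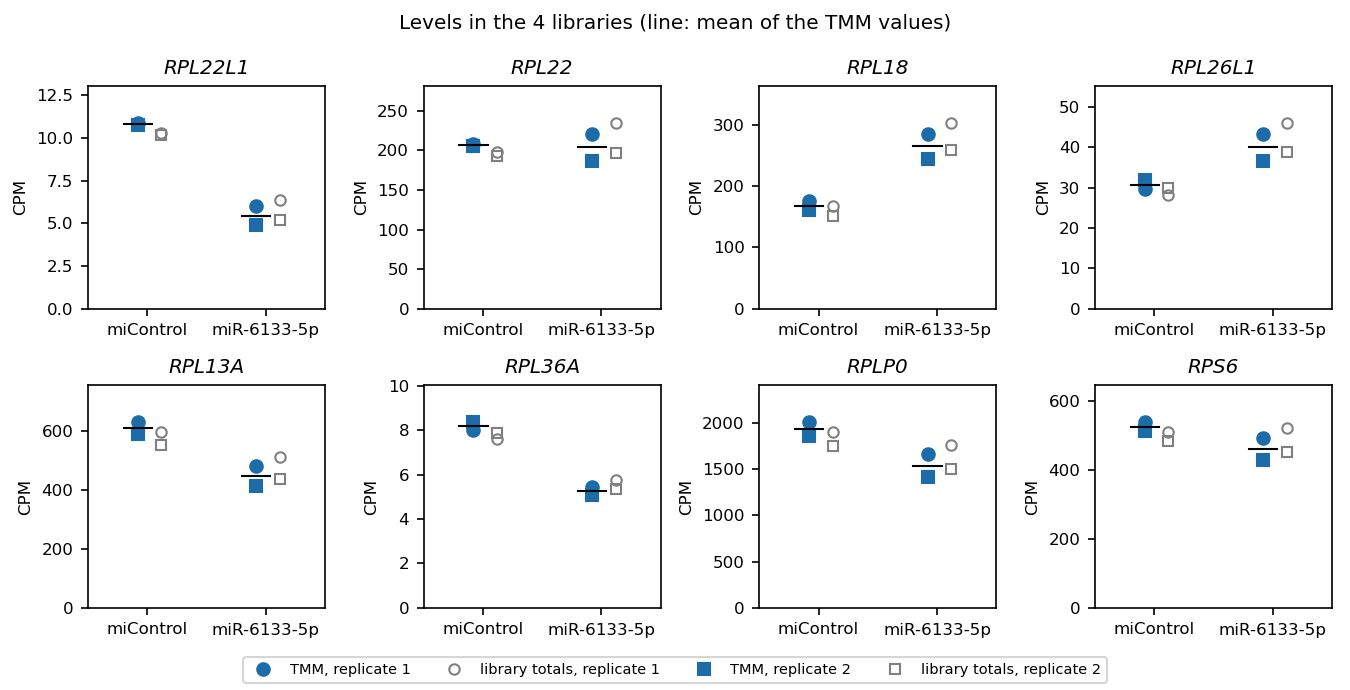
Level (y axis, CPM, from 0) of 8 ribosomal protein genes in miControl and miR-6133-5p, with circles for replicate 1, squares for replicate 2, filled symbols for TMM and open symbols for library totals, and a line at the mean of the TMM values. The miR-6133-5p libraries lie below miControl for *RPL22L1* and *RPL36A* and above for *RPL18* and *RPL26L1* by either scaling, while *RPL22* overlaps.

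Of the 31 genes of 40S proteins, 3 were lower and 0 higher at the looser threshold with TMM, where 16.1% and 14.1% of all tested genes were, and their median was −0.11. With library totals, 0 were lower and 2 higher, beside 11.1% and 25.2% of all tested genes, and the median was 0.051. The lower genes were *RPS12* (−0.40), *RPS27* (−0.33) and *RPS25* (−0.33). *RPS12*, a 40S protein at the beak of the subunit, was at 252 and 251 CPM in miControl and at 210 and 169 CPM in miR-6133-5p. The groups did not overlap by TMM, and the adjusted p was 0.0196 with TMM and 0.1313 with library totals (edgeR's quasi-likelihood test). *RPS23*, which lies in the decoding centre, moved the other way, from 229 and 216 CPM in miControl to 289 and 254 CPM in miR-6133-5p. It passed the looser threshold only with library totals, at 0.45 (adjusted p = 0.0055, edgeR's quasi-likelihood test), and had 0.29 (adjusted p = 0.0606) with TMM. *RPS15* had 0.34 (adjusted p = 0.0424) with library totals and 0.18 with TMM.

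*RPS6*, the 40S protein phosphorylated by the S6 kinases, was at 539 and 514 CPM in miControl and at 494 and 429 CPM in miR-6133-5p. Although the groups did not overlap with TMM, the log2 fold change of −0.19 (SE 0.108, adjusted p = 0.2132, edgeR's quasi-likelihood test) did not pass. With library totals the groups overlapped, and the log2 fold change was −0.026. *RPSA*, which is also known as the laminin receptor, had −0.24 with TMM and −0.073 with library totals and did not pass. *RPS10* had −0.044 (SE 0.170) with TMM.

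The stalk proteins recruit the elongation factors to the ribosome. *RPLP0* was at 2007 and 1856 CPM in miControl and at 1661 and 1418 CPM in miR-6133-5p. *RPLP1* was at 435 and 397 CPM in miControl and at 352 and 288 CPM in miR-6133-5p. Neither gene overlapped between the groups with TMM, whereas *RPLP0* did with library totals. The log2 fold changes were −0.33 (SE 0.109, adjusted p = 0.0371) and −0.38 (SE 0.117, adjusted p = 0.0270) with TMM by edgeR's quasi-likelihood test. With library totals they were −0.16 and −0.21 and did not pass. *RPLP2*, the partner of RPLP1, overlapped between the groups, and had −0.089 with TMM and 0.075 with library totals.

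Ribosomal protein genes with the TOP run at an annotated start had a lower median than those whose annotated starts had none, a difference that was not tested. Starts outside the annotation were not looked at, and genes with no start in the annotation used were in neither class. The 47 with a run had a median log2 fold change of −0.15 with TMM and 0.015 with library totals, ranging from −0.998 to 0.66 with TMM. The 19 tested genes without one had medians of 0.046 and 0.21, ranging from −0.37 to 0.38. Both scalings gave the same order by construction, since library totals moved every log2 fold change by about 0.16. Each class held genes that rose and genes that did not. Other TOP mRNAs, 16 of them tested, encode elongation factors and other proteins. Their median was −0.15 with TMM and 0.014 with library totals. At the looser threshold with TMM, 0 were higher and 4 lower, where 14.1% and 16.1% of all tested genes were. The 4 lower genes were *PABPC1* (−0.41), which binds the poly(A) tail, *EEF1A1* (−0.38), which brings aminoacyl-tRNA to the ribosome, *NAP1L1* (−0.37) and *EEF2* (−0.33), the translocation factor. None of them passed with library totals, where 2 other genes of the list were higher, beside 25.2% of all tested genes. *EEF1G* was not tested, since it had 0 counts in 3 libraries and 1 in miR-6133-5p replicate 2, and 99.7% of its exonic bases belonged to another gene as well.

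Host RNAs of small nucleolar RNAs, which start with a TOP motif but encode no ribosomal protein, were mostly lower. Of 10 tested, 8 were lower and 1 higher at the looser threshold by either scaling. Over all tested genes, 16.1% were lower and 14.1% higher with TMM, and 11.1% and 25.2% with library totals. The median of the 10 was −0.56 with TMM and −0.39 with library totals. *SNHG8* was at 10.4 and 8.39 CPM in miControl and at 5.20 and 3.91 CPM in miR-6133-5p. *SNHG12* was at 21.4 and 20.0 CPM in miControl and at 11.8 and 8.89 CPM in miR-6133-5p. Both fell without overlap, with log2 fold changes of −1.05 (SE 0.174) and −1.01 (SE 0.142) with TMM and −0.89 and −0.84 with library totals. *GAS5* had −0.69 and *ZFAS1* −0.70 with TMM. *SNHG6* rose, from 5.45 and 7.06 CPM in miControl to 11.5 and 9.08 CPM in miR-6133-5p, with a fold change on the log2 scale of 0.71 (SE 0.167, adjusted p = 0.0057, edgeR's quasi-likelihood test). Of its exonic bases, 58.9% also lay in genes on the opposite strand. This overlap was 37.6% for *SNHG8*, 36.4% for *ZFAS1*, 7.75% for *GAS5* and 0.188% for *SNHG12*. Its part in these counts was not tested.

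**Figure D5:**
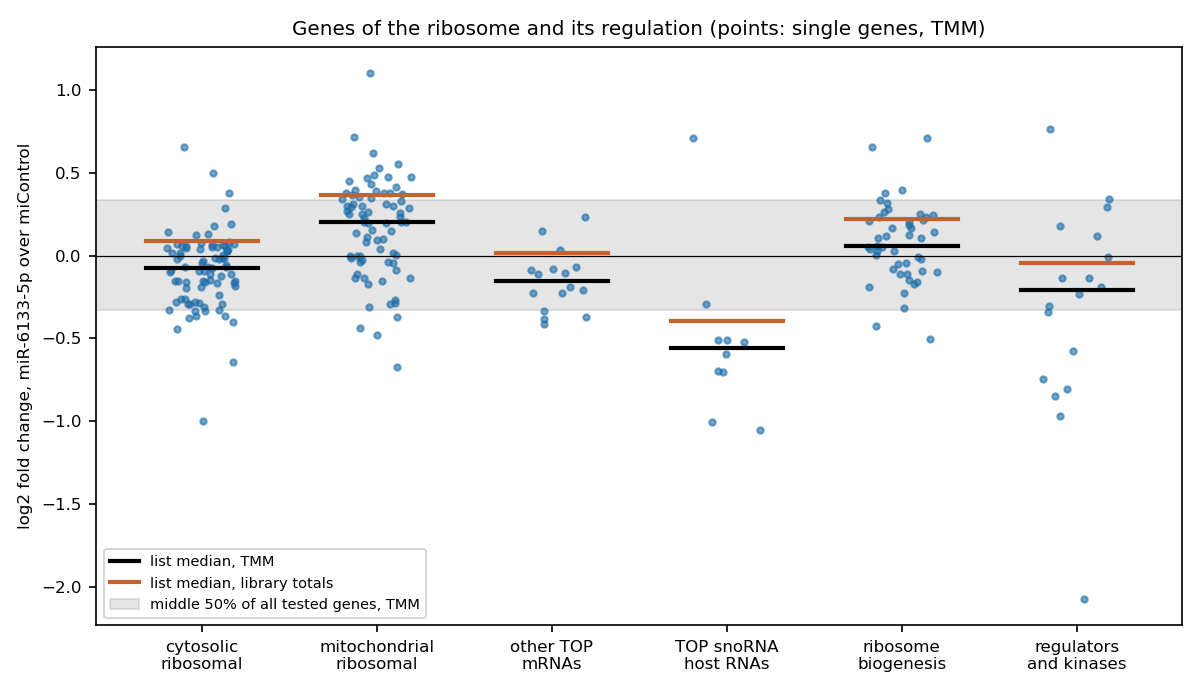
Log2 fold change of miR-6133-5p over miControl with TMM (y axis) for single genes (points) of cytosolic ribosomal proteins and 5 related lists (x axis), with list medians by TMM (black) and library totals (orange) and the middle 50% of all tested genes as a grey band. The cytosolic ribosomal protein genes centre on −0.073 and the snoRNA host RNAs on −0.56, while the mitochondrial ribosomal protein genes centre on 0.21.

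A few proteins of the ribosome fall outside the naming pattern. *RPS27L*, a p53-responsive paralog of *RPS27*, was at 39.1 and 37.6 CPM in miControl and at 51.2 and 45.5 CPM in miR-6133-5p, without overlap. Its log2 fold change was 0.33 (SE 0.107, adjusted p = 0.0305, edgeR's quasi-likelihood test) with TMM and 0.50 with library totals, whereas *RPS27* fell with TMM by 0.33. *FAU*, which encodes RPS30, had 0.22 with TMM, and *RACK1*, a signalling scaffold on the 40S subunit, had 0.12. Neither passed the looser threshold with TMM, and *FAU* passed it with library totals at 0.38 (adjusted p = 0.0208, edgeR's quasi-likelihood test).

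The mitochondrial ribosomal protein genes took 0.272% and 0.262% of counts in miControl and 0.347% and 0.303% in miR-6133-5p, without overlap (exact permutation p = 0.333, the smallest possible). With library totals, 46.8% of all tested genes lay above both miControl libraries in the same way. Of 75 tested genes of these proteins, 19 were higher and 5 lower at the looser threshold with TMM, beside 14.1% and 16.1% of all tested genes. The median of the 75 was 0.21. With library totals, 43 were higher and 2 lower, beside 25.2% and 11.1%, with a median of 0.37. *MRPS35*, a protein of the small mitochondrial subunit, rose from 30.7 and 31.2 CPM to 72.5 and 60.5 CPM, a log2 fold change of 1.10 (SE 0.114, adjusted p = 1.1e-05, edgeR's quasi-likelihood test). *MRPS27*, a protein of the same subunit, fell by 0.67 on the log2 scale with TMM.

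Of 47 genes of ribosome biogenesis, 5 were higher and 2 lower at the looser threshold with TMM, with a median of 0.057. Of all tested genes, 14.1% were higher and 16.1% lower. With library totals, 18 were higher and 0 lower, beside 25.2% and 11.1% of all tested genes, with a median of 0.22. *WDR12*, part of the complex that matures the 60S subunit, had the largest rise (0.71), and *POLR1A*, the catalytic subunit of RNA polymerase I, the largest fall (−0.50 with TMM, −0.34 and not past the threshold with library totals). Among 18 regulators of TOP mRNA translation and ribosomal protein kinases, 2 were higher and 8 lower at the looser threshold with TMM, beside 14.1% and 16.1% of all tested genes, with a median of −0.21 (−0.045 with library totals). *EIF4EBP1*, the mTOR target that holds back the cap-binding factor eIF4E, was at 64.6 and 55.7 CPM in miControl and at 15.9 and 12.8 CPM in miR-6133-5p. It fell by 2.07 on the log2 scale with TMM and by 1.91 with library totals. *EIF4EBP2* (−0.97), *MYC* (−0.85), a transcription factor that drives ribosome production, and *RPS6KA2* (−0.81) were also past the stricter threshold with TMM. *RPS6KA1*, a kinase related to *RPS6KA2*, rose by 0.76. *MTOR* itself had −0.23 and *LARP1* −0.19 with TMM, and neither passed. Other genes of the list passed the looser threshold by both scalings. Among them were *RPS6KB2* (−0.74 with TMM) and *RPTOR* (−0.58), which fell, and *MLST8* (0.34), which rose.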

How the data were processed

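The authors prepared stranded mRNA libraries, sequenced pairs of 150 bases per mate, aligned them to GRCh37 with STAR 2.5.3a and counted them with featureCounts of Subread 1.6.4, per the submitters' processing notes. The deposited values used here are whole-number counts per Ensembl gene, without normalization. Each library has 1.68 to 1.70 counts per uniquely mapped pair, so mates were counted singly. The strand setting and annotation release of the counting are not given in the sources used here. A deposited mapping summary gives the fraction of input pairs mapped uniquely, 96.5% to 96.8% as percent. It lists 0 pairs mapped to multiple loci and 1.24% to 1.36% mapped to too many, so pairs with several places gave no counts, which lowers genes that have near-identical copies. Pseudogenes named after ribosomal protein genes (1592 rows, 170 tested) held 1.23% to 1.31% as many counts as the genes. The authors' FPKM values were not used.

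Identifiers were matched to GENCODE 44 lifted to GRCh37 (55665 of 63677, 87.4%, with 99.3% of counts). Genes were filtered with filterByExpr, scaled by TMM (factors 0.948 and 0.941 for miControl, 1.06 and 1.06 for miR-6133-5p) and tested with edgeR 4.0.16 (R 4.3.3) by the quasi-likelihood F test, two-sided, without a replicate block, and p-values were adjusted by Benjamini–Hochberg over the 18252 tested genes. Genes were called at an adjusted p under 0.01 with a log2 fold change beyond 0.8, or an adjusted p under 0.05. Standard errors were derived from the F statistic. The common biological coefficient of variation was 0.105. Shares of counts were compared by exact permutation. CPM carries no pseudocount, and log2 CPM of single libraries a pseudocount of 0.5. Counting error is small at these depths, and no interval was computed from counts alone, since counts also carry amplification and biological variation.

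Alternatives were library totals, RLE, TMM factors computed without ribosomal protein genes, DESeq2 1.42.0, no filter, at least 10 counts in every library, a replicate block, thinning to the smallest library, pseudogene counts added, glmTreat, and each library left out in turn. The last with library totals, and the block with library totals, were chosen after seeing the data. The procedure was tested on simulated data. Replicates had a Pearson's r of log2 CPM of 0.997 and 0.996.

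The genes, the related lists and the tests were chosen with earlier results of these data known. Genes named were those past a threshold with a log2 fold change beyond 0.5, the 6 largest rises and the 6 largest falls, the 3 highest and the 3 lowest levels, the paralogs with the genes they copy, and genes with known special roles. Of the lists, genes past the stricter threshold or else the largest change each way were named. *RPL6*, *RPS25*, *RPS27*, *RPL21*, *EEF1A1*, *EEF2*, *NAP1L1*, *GAS5*, *ZFAS1*, *MTOR*, *LARP1*, *RPS6KB2*, *RPTOR* and *MLST8* were added after their values were seen. Gene starts came from RefSeq on GRCh38.p14, and these coordinates are not those of GRCh37. The mature sequence of miR-6133-5p is not shown. A few genes covered by these rules are not reported here. Python 3.11.15, numpy 2.4.6, pandas 2.3.3, scipy 1.17.1 and matplotlib 3.10.9 were used.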

Additional observations from a re-analysis of the deposited data

How the results depend on the processing

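RLE, TMM factors without ribosomal protein genes, DESeq2, no filter, the minimum of 10 counts, thinning and added pseudogene counts left the 4 counts of called genes within 1.5 times their values and the median between −0.085 and −0.063. Library totals gave 1 gene higher by more than 0.8, 5 higher and 2 lower at an adjusted p under 0.05, and a median of 0.091, and they moved every log2 fold change by about 0.16, by their own construction. With glmTreat, which tests against the fold limit itself, 0 genes were lower at an adjusted p under 0.01, where 1.79% of all tested genes were. Leaving out 1 library, which leaves a lone library that is assumed to vary like the others, gave 1 to 11 higher and 2 to 41 lower at an adjusted p under 0.05 and medians from −0.23 to 0.022. With library totals as well, it gave 0 to 1 higher and 0 to 1 lower by more than 0.8, 2 to 38 higher and 1 to 16 lower at an adjusted p under 0.05, and medians from −0.054 to 0.20. Over all tested genes, these fits with library totals gave 5.18% to 5.56% higher and 3.37% to 4.2% lower by more than 0.8. At an adjusted p under 0.05 they gave 16% to 25.2% higher and 7.62% to 12.1% lower. The cause of these differences between settings was not tested.

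Deviations from the group means had a correlation of 0.0665 with 2 pairs, too few to decide whether equal replicate numbers paired the libraries. Most tested ribosomal protein genes were higher in replicate 1 in both groups, 75 of 82 in miControl and 82 of 82 in miR-6133-5p. With a replicate block, 17 genes were lower and 3 higher at an adjusted p under 0.05, where 18.2% and 16.7% of all tested genes were. The block with library totals gave 1 higher by more than 0.8, where 6.38% of all tested genes were, and a median of 0.088. At an adjusted p under 0.05 it gave 8 higher (27.6% of all tested genes) and 3 lower (12.1%).

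With library totals the medians of the related lists were 0.33 for ribosomal proteins outside the naming pattern, 0.014 for other TOP mRNAs, −0.39 for snoRNA host RNAs, 0.22 for ribosome biogenesis, −0.045 for regulators and 0.37 for mitochondrial ribosomal proteins. The sign turned with library totals for *RPL10* (0.0066), *RPL11* (0.15), *RPL19* (0.090), *RPL22* (0.14), *RPL5* (0.14), *RPL7* (0.073), *RPLP2* (0.075) and *RPS10* (0.12), none of which passed a threshold. With TMM, leaving out 1 library turned the sign of further small values, whose ranges were −0.15 to 0.086 for *RPL11*, −0.19 to 0.0057 for *RPL19*, −0.17 to 0.082 for *RPL22*, −0.11 to 0.16 for *RPL26*, −0.044 to 0.11 for *RPL3*, −0.074 to 0.19 for *RPL36AL*, −0.16 to 0.077 for *RPL5*, −0.25 to 0.021 for *RPL7*, −0.11 to 0.17 for *RPL9*, −0.24 to 0.017 for *RPLP2* and −0.27 to 0.13 for *RPS10*.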
